A study of Sus scrofa with 20 samples.

Results

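Of the 9 genes that encode repressors of the mammalian circadian clock, namely BHLHE40, BHLHE41, NR1D1, NR1D2, PER1, PER2, PER3, CRY1 and CRY2, 8 were read on arrays of pig muscle. Members were taken as every probe set of the deposited table whose single gene symbol in the platform annotation was 1 of these 9. This gave 15 of the 45922 porcine probe sets tested, for 8 genes. No probe set carried the symbol CRY2 alone, and that gene was not analysed here. The study compared longissimus dorsi muscle of adult Duroc pigs, a fatter commercial breed (10 animals), with that of adult Pietrain pigs, a leaner and more muscular breed (10 animals). The Pietrain animals belonged to the group called PiNN, which are homozygous negative for malignant hyperthermia syndrome, that is, they carry the normal form of the calcium release channel gene RYR1 on both chromosomes. There was 1 Affymetrix Porcine Snowball array per animal and no treatment is named for either breed. Both breeds came from commercial lines and were kept at the same station, and the study lists sex and age for animals with a methylation library by breed, with females and castrated males in each, but without animal numbers, so neither was assigned to an array. The labels give the muscle as taken 24 h before slaughter, whereas the methods of the study describe tissue for methylation libraries collected after slaughter. The hour of the day at which each animal was sampled was not given in the sources used here, so breed and time of sampling cannot be told apart for genes whose transcripts cycle over the day.

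The circadian clock is a loop of transcription that runs in nearly every cell, skeletal muscle fibres included. The transcription factors CLOCK (or NPAS2) and BMAL1, the product of ARNTL, bind E-box elements and switch on the period genes PER1 to PER3 and the cryptochromes CRY1 and CRY2, whose proteins return to the nucleus and inhibit their own activators. The same activators switch on NR1D1 and NR1D2, which encode the nuclear receptors REV-ERBα and REV-ERBβ that repress ARNTL, and BHLHE40 and BHLHE41, which encode DEC1 and DEC2, repressors that compete for E-boxes. In rodents, transcripts of most of these genes cycle strongly over the day in muscle, and several of them also respond to glucocorticoids, to feeding and to muscle activity.

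The unit is the log2 signal of a probe set, as deposited, and a difference is given as Duroc minus PiNN, so a negative value means a lower signal in Duroc. The 69 background probe sets of the array averaged 3.93 over all arrays, and the level of these probe sets on an array is called its background. It ran from 3.78 to 4.10 with a median of 3.825 in Duroc, and from 3.83 to 4.21 with a median of 3.949 in PiNN. The highest value was that of PiNN animal 49. The muscle label held on its markers. The mean over 8 skeletal muscle fibre markers ran from 12.18 to 12.54 with a median of 12.40 in Duroc, and from 12.08 to 12.60 with a median of 12.42 in PiNN. None of those 8 genes passed the test in limma, against 8.26% of all genes with a symbol, or in the ANOVA. At an unadjusted limma p under 0.05 there were 0 of 16 probe sets, against 17.3% of all probe sets.

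Lower signals in Duroc than in PiNN muscle were found for 4 of the 8 repressor genes measured, namely BHLHE40, NR1D1, PER1 and PER3, by 0.47 to 0.62 on the log2 scale. None was higher in Duroc by the same test. By probe set, 4 of 15 had an adjusted p under 0.05 in limma (Benjamini-Hochberg over all 45922 probe sets), against 4.17% of all probe sets tested. That share was 6.08% among the 28623 probe sets with a mean signal above the background, where the 4 called ones lie. All 4 were lower in Duroc, a direction in which 1.41% of all probe sets were called, and 0 were higher, against 2.76% of all probe sets. By gene, 4 of 8 had at least 1 such probe set, against 8.26% of all 13609 genes with a symbol. At an unadjusted p under 0.05 there were 7 of the 15 probe sets, against 17.3% of all. On the brightest probe set per gene, 6 of 8 genes had the lower mean in Duroc, against 54.9% of all probe sets tested, and NR1D2 and CRY1 had the higher one. The median difference was −0.24 over these 8 probe sets and −0.14 over all 15 repressor probe sets, beside −0.02 over all probe sets tested. In none of the 15 probe sets were the breeds free of overlap, which was the case for 0.122% of all probe sets. Because whole muscle was hybridised, fewer cells of a type and less RNA per cell cannot be told apart in any of these differences.

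**Figure D1:**
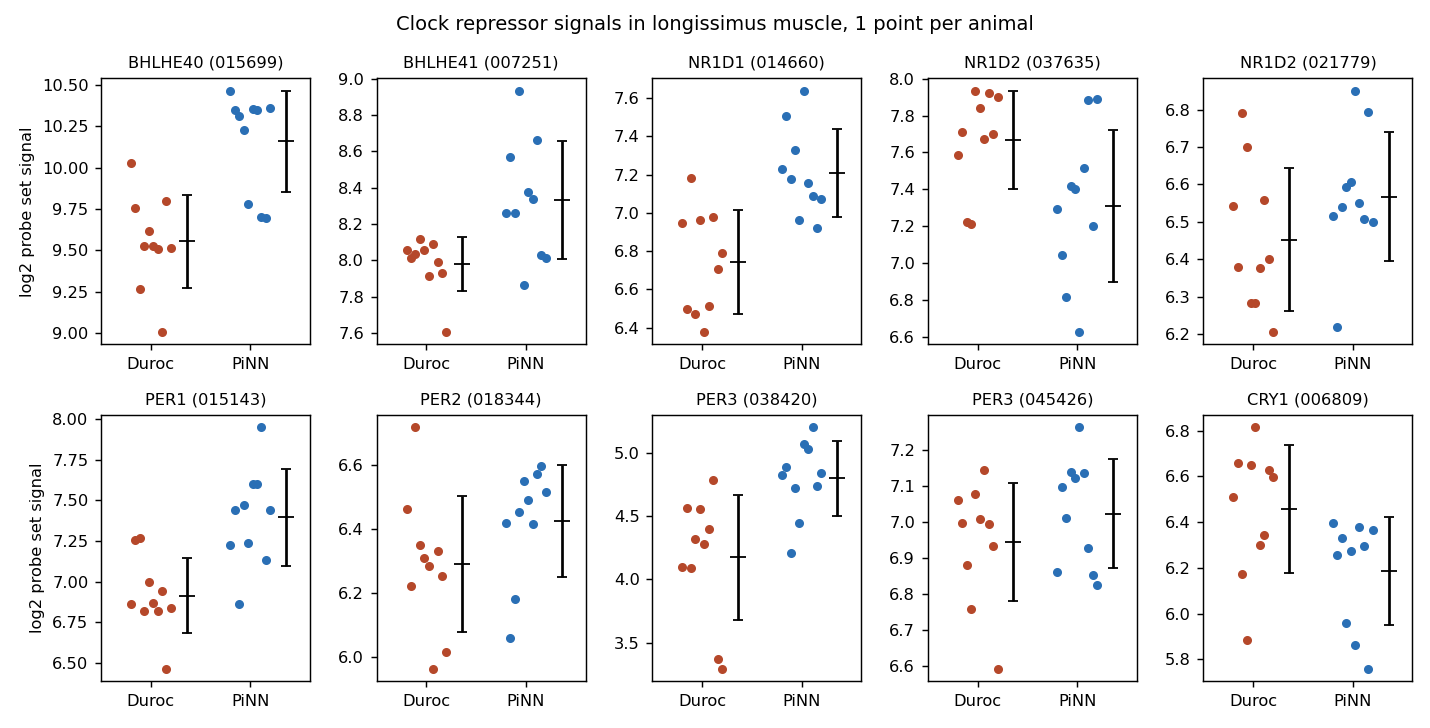
Log2 signal of 10 repressor probe sets in each animal, with Duroc (red) left of PiNN (blue) in each panel, 1 point per animal and the mean ± SD of each breed beside its 10 points. For BHLHE40, all 10 Duroc points lie under the PiNN median of 10.33, and for CRY1 no PiNN animal lies above the Duroc median of 6.56.

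Of the DEC genes, BHLHE40 was lower in Duroc and BHLHE41 did not pass. For BHLHE40, which encodes DEC1, the signal (probe set SNOWBALL_015699_st) had a lowest value of 9.004, a median of 9.53 and a highest value of 10.03 in Duroc animals, against 9.70, 10.33 and 10.47 in PiNN animals. The signal of every Duroc animal was under the PiNN median, that of 7 was under the lowest PiNN animal, and 7 PiNN animals lay above the highest Duroc animal, so the breeds overlapped in only a few animals of each. The means were 9.55 ± 0.28 in Duroc and 10.16 ± 0.31 in PiNN (SD, n = 10 each), a difference of −0.61 (95% interval −0.87 to −0.34, limma adjusted p = 0.00844). The PiNN signal was thus 1.52 times the Duroc signal, and a two-sided permutation test of the same difference gave p = 0.00041.

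BHLHE41, which encodes DEC2, was represented by 3 probe sets, and none of them passed. On the brightest, SNOWBALL_007251_st, the signal was 7.61, 8.02 and 8.12 (lowest, median and highest) in Duroc and 7.87, 8.30 and 8.93 in PiNN. All 10 Duroc animals were again under the PiNN median and 7 PiNN animals above the highest Duroc animal, but the PiNN animals were widely spread. The difference was −0.35 (95% interval −0.58 to −0.12) with a limma adjusted p of 0.0785. Leaving out PiNN animal 35 or PiNN animal 62 brought the limma adjusted p to 0.0409 and 0.0480, and leaving out Duroc animal 59 brought it to 0.137. The next probe set, SNOWBALL_039964_st, differed by −0.23 (95% interval −0.48 to 0.02, limma adjusted p = 0.330), and it followed the brightest one between animals of a breed (r = 0.73 and Spearman rho = 0.60 over 20 animals after the breed mean was removed, r = 0.61 without the 2 farthest animals). Over 10 such pairs of probe sets of 1 gene, the adjusted permutation p was 0.0176 for that r and 0.116 for that rho, and r was 0.16 within Duroc against 0.86 within PiNN. The remaining BHLHE41 probe set, SNOWBALL_028782_st, had a mean of 1.44 in both breeds, below the background.

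Of the REV-ERB genes, NR1D1 was lower in Duroc and NR1D2 did not pass. NR1D1 encodes REV-ERBα, a haem-binding receptor that, in mice, also acts on lipid and mitochondrial genes of muscle. Its signal on SNOWBALL_014660_st was 6.38, 6.75 and 7.19 (lowest, median and highest) in Duroc, against 6.92, 7.17 and 7.64 in PiNN. The signal of 9 Duroc animals lay below the PiNN median and that of 6 below every PiNN animal. The means were 6.74 ± 0.27 in Duroc and 7.21 ± 0.23 in PiNN (SD, n = 10 each), which differed by −0.47 (95% interval −0.70 to −0.24, limma adjusted p = 0.0190, permutation test p = 0.00063). A second NR1D1 probe set lay below the background in both breeds, with means of 2.34 in Duroc and 2.22 in PiNN.

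In the RefSeq annotation of the pig, the range of NR1D1 overlaps that of THRA, the gene of thyroid hormone receptor α. Both THRA probe sets were lower in Duroc as well. They averaged 6.71 ± 0.15 in Duroc and 7.06 ± 0.18 in PiNN on 1 probe set (difference −0.36, limma adjusted p = 0.0147) and 9.31 ± 0.25 in Duroc and 9.71 ± 0.23 in PiNN on the other (difference −0.40, limma adjusted p = 0.0348). Between animals of a breed, the correlation of NR1D1 with the THRA probe sets did not pass, with r of 0.29 and 0.40 (Spearman rho 0.27 and 0.36), adjusted permutation p of 0.230 and 0.192 for r, and r of 0.10 and 0.35 without the 2 farthest animals. The range of BHLHE40 overlaps that of LOC106505661, and the range of CRY1 overlaps those of MTERF2, TMEM263, LOC100521268 and LOC110260831. No overlapping gene was listed for the other repressor genes. Whether RNA of 1 gene is read by probes of a gene that overlaps it was not tested.

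NR1D2, which encodes REV-ERBβ, had 3 probe sets with differences of either sign, and none passed. On the brightest, SNOWBALL_037635_st, the signal was 7.21, 7.70 and 7.93 (lowest, median and highest) in Duroc, against 6.63, 7.35 and 7.89 in PiNN. The breeds overlapped over nearly the whole Duroc range, and the difference of 0.36 (95% interval 0.06 to 0.66) had a limma adjusted p of 0.180. On SNOWBALL_021779_st the means were 6.45 in Duroc and 6.57 in PiNN, and the difference of −0.12 (95% interval −0.30 to 0.07) had a limma adjusted p of 0.570. Between animals of a breed these 2 probe sets of the same gene correlated negatively, without passing (r = −0.50, Spearman rho = −0.46, adjusted permutation p for r = 0.0852, r = −0.84 within Duroc and −0.28 within PiNN, r = −0.25 without the 2 farthest animals). The remaining NR1D2 probe set lay below the background, at 2.24 in Duroc and 2.39 in PiNN.

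Of the period genes, PER1 and PER3 were lower in Duroc on 1 probe set each, and PER2 did not pass. PER1, a period gene that glucocorticoids induce, had a signal on SNOWBALL_015143_st of 6.46, 6.87 and 7.27 (lowest, median and highest) in Duroc and 6.87, 7.44 and 7.95 in PiNN. Every Duroc animal was under the PiNN median, and 6 PiNN animals lay above the highest Duroc animal. The means of 6.91 ± 0.23 in Duroc and 7.40 ± 0.30 in PiNN (SD, n = 10 each) differed by −0.48 (95% interval −0.73 to −0.24, limma adjusted p = 0.0200, permutation test p = 0.00087), and the PiNN signal was 1.40 times the Duroc signal.

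PER2, whose protein is a core partner of the cryptochromes, had a signal on SNOWBALL_018344_st of 5.96, 6.30 and 6.72 in Duroc and 6.06, 6.47 and 6.60 in PiNN. The signal of 9 Duroc animals lay under the PiNN median, but the highest of all animals was a Duroc animal. The difference of −0.14 (95% interval −0.33 to 0.06) had a limma adjusted p of 0.506.

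PER3, a period gene that mice can lose without losing their rhythms, was read by 3 probe sets. Of these, only SNOWBALL_038420_st passed. Its signal was 3.29, 4.30 and 4.79 (lowest, median and highest) in Duroc, against 4.21, 4.84 and 5.20 in PiNN, and it exceeded the background of its own array in 17 of 20 animals. Every Duroc animal was again under the PiNN median, and Duroc animals 59 (3.29) and 58 (3.37) were the lowest. The difference of −0.62 (95% interval −0.97 to −0.28) had a limma adjusted p of 0.0354, and the call was lost in 9 of the 20 fits that each left out 1 animal. The other PER3 probe sets gave −0.05 (95% interval −0.32 to 0.21, limma adjusted p = 0.900) on SNOWBALL_029857_st and −0.08 (95% interval −0.25 to 0.09, limma adjusted p = 0.702) on SNOWBALL_045426_st, the brightest. With all 3 averaged, PER3 differed by −0.25 (limma adjusted p = 0.0960), so its call rests on 1 of 3 probe sets.

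CRY1 encodes the cryptochrome that represses CLOCK and BMAL1 most strongly late in the cycle, and it had the higher mean in Duroc. On SNOWBALL_006809_st the signal was 5.89, 6.56 and 6.82 (lowest, median and highest) in Duroc, against 5.76, 6.29 and 6.40 in PiNN. No PiNN animal lay above the Duroc median, while the lowest Duroc animals lay within the PiNN range. The difference of 0.27 (95% interval 0.03 to 0.50) had an unadjusted p of 0.0270 and an adjusted p of 0.209 in limma, and did not pass.

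**Figure D2:**
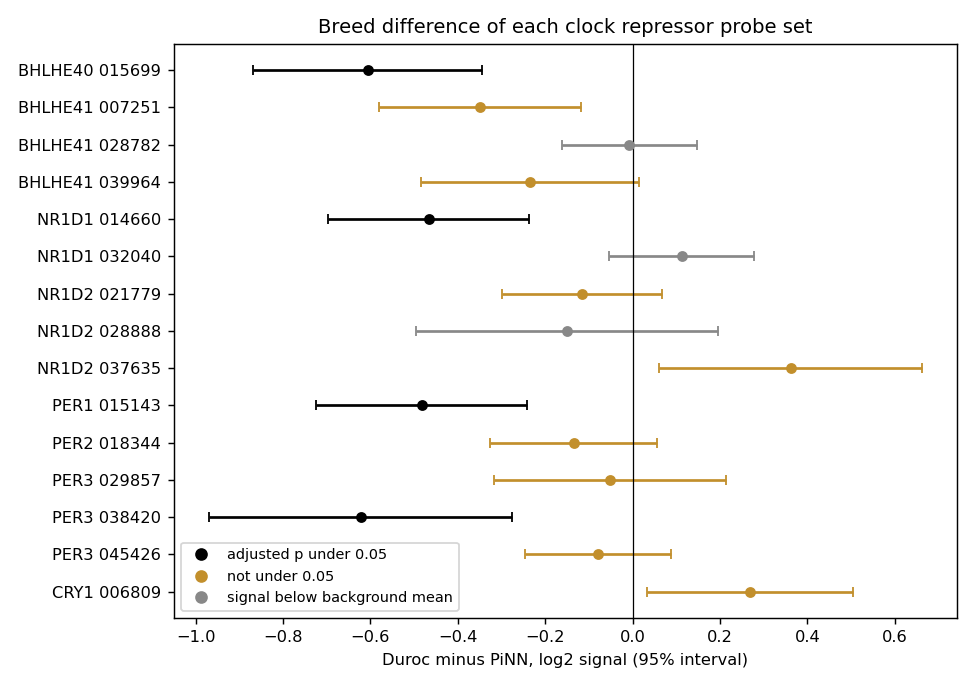
Difference in log2 signal (Duroc minus PiNN) with its 95% interval for each repressor probe set, from limma on 10 animals per breed, with black for an adjusted p under 0.05, ochre for the others and grey for probe sets below the background. The probe sets of BHLHE40, NR1D1 and PER1 and SNOWBALL_038420_st of PER3 lie at −0.47 to −0.62, and CRY1 and the brightest NR1D2 probe set lie at 0.27 and 0.36.

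Of the repressor probe sets, 3 followed the background of the arrays from animal to animal within a breed, and none of these was among the 4 called. For NR1D2 on SNOWBALL_021779_st, r with the array background was 0.79 over 20 animals after the breed mean was removed (Spearman rho = 0.70, adjusted permutation p 0.00285 for r and 0.0102 for rho over 19 probe sets, r = 0.70 without the 2 farthest animals). For CRY1 the relation was inverse (r = −0.75, Spearman rho = −0.68, adjusted permutation p 0.00503 for r and 0.0102 for rho, r = −0.64 without the 2 farthest animals). For PER2 it was direct (r = 0.68, Spearman rho = 0.71, adjusted permutation p 0.00975 for r and 0.0102 for rho, r = 0.54 without the 2 farthest animals). Each of these held its sign within both breeds, with r of 0.86 in Duroc and 0.71 in PiNN for NR1D2, −0.64 in Duroc and −0.88 in PiNN for CRY1, and 0.77 in Duroc and 0.56 in PiNN for PER2. The brightest NR1D2 probe set, SNOWBALL_037635_st, did not pass (r = −0.43, Spearman rho = −0.31, adjusted permutation p 0.193 for r and 0.461 for rho). Its r was −0.87 within Duroc, −0.15 within PiNN and −0.36 without the 2 farthest animals. For the called probe sets r was −0.23 for BHLHE40, 0.17 for NR1D1, 0.24 for PER1 and 0.14 for PER3, with adjusted permutation p of 0.716 to 0.761. Within Duroc these were 0.13, 0.37, 0.31 and 0.05 in that order, and within PiNN −0.59, −0.09, 0.19 and 0.29. Without the 2 farthest animals they were 0.10, 0.19, 0.32 and 0.23. With that background level added to the limma fit as a covariate, the differences were −0.65 for BHLHE40, −0.44 for NR1D1, −0.45 for PER1 and −0.59 for PER3, and PER3 no longer passed (limma adjusted p = 0.0566). The difference of CRY1 was 0.16 in that fit, and that of PER2 was −0.06. This relation was looked for after the values had been seen.

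**Figure D3:**
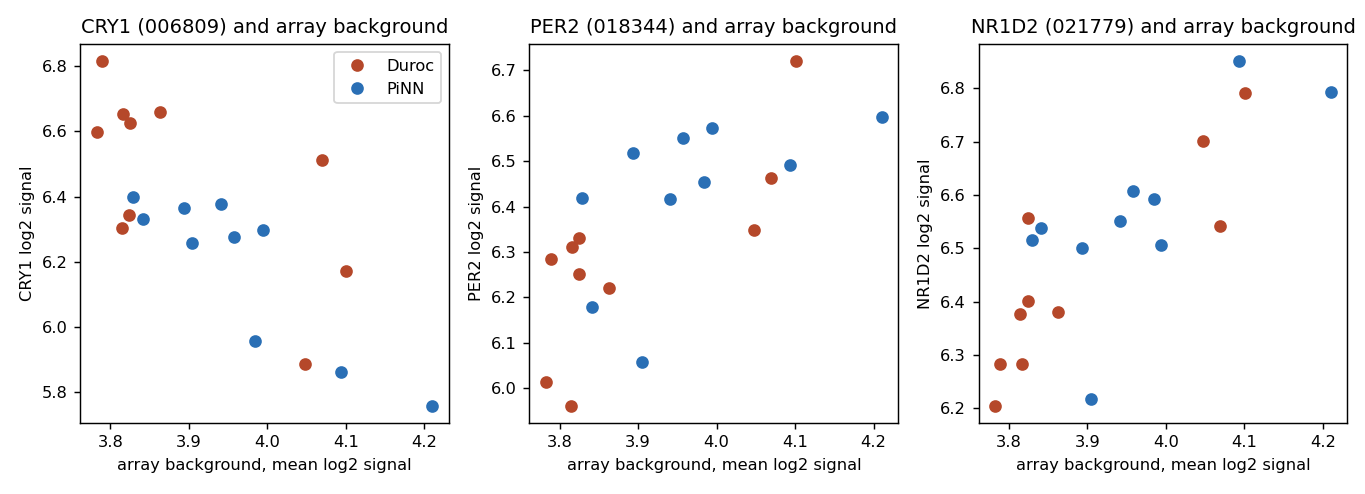
Log2 signal of CRY1, PER2 and NR1D2 (SNOWBALL_021779_st) on the vertical axis against the mean log2 signal of the 69 background probe sets of the same array, 1 point per animal, Duroc in red and PiNN in blue. CRY1 runs down and PER2 and NR1D2 run up along the axis, with r of −0.75, 0.68 and 0.79 over 20 animals after the breed mean was removed.

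The activators of the clock did not show a breed difference that passed. Of 6 measured activator genes 0 were called by limma, against 8.26% of all genes with a symbol, and 0 by the ANOVA. With 6 genes, a count of 0 is near that share. The median difference of the brightest probe sets was −0.01. At an unadjusted limma p under 0.05 there were 5 of 17 probe sets, in 3 genes, against 17.3% of all probe sets. CLOCK, whose protein heads the activating complex, had the higher mean in Duroc on all 4 of its probe sets, with differences of 0.22 to 0.27 and limma adjusted p of 0.0972 to 0.584, and 1 of the 4 averaged below the background (3.70 in Duroc, 3.47 in PiNN). ARNTL, the gene of its partner BMAL1, averaged 2.82 in Duroc and 3.03 in PiNN, below the background on all 20 arrays, so this probe set gives no level above background for the gene that the REV-ERBs repress. For NPAS2, the CLOCK paralogue, the brightest probe set averaged 5.18 in Duroc and 5.28 in PiNN (difference −0.10, limma adjusted p = 0.559).

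Among 11 measured genes of clock output and modulation, 1 passed, against 8.26% of all genes with a symbol. USP2, which encodes a deubiquitinating enzyme with a rhythmic transcript that acts on clock proteins, had a signal of 8.41, 8.54 and 8.88 (lowest, median and highest) in Duroc and 8.37, 8.996 and 9.21 in PiNN, and differed by −0.35 (limma adjusted p = 0.0347). Its other probe set differed by −0.22 (limma adjusted p = 0.227), and 7 of the 20 fits that each left out 1 animal kept the call. DBP, a transcription factor gene driven directly through E-boxes and often used as a readout of the clock, had a signal of 5.85, 6.35 and 6.77 in Duroc, against 5.94, 6.87 and 7.28 in PiNN. The difference of −0.45 had an unadjusted p of 0.00938 and an adjusted p of 0.117 in limma, and so did not pass. DBP too followed the array background within breeds (r = 0.58, Spearman rho = 0.60, adjusted permutation p 0.0417 for r and 0.0338 for rho, r = 0.45 without the 2 farthest animals).

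Since PER1 and several other repressors respond to glucocorticoids, 12 measured genes of that response were read beside them. Of these 1 passed, against 8.26% of all genes with a symbol. It was ERRFI1, which encodes an inhibitor of the EGF receptor, on 2 of its 3 probe sets (differences of −0.45 and −0.37, limma adjusted p of 0.0366 and 0.0480). Its brightest probe set did not pass, with means of 9.201 in Duroc and 9.255 in PiNN (difference −0.05, limma adjusted p = 0.895). On the brightest probe sets, 9 of the 12 genes had the lower mean in Duroc, and the median difference was −0.10. No gene of this list passed in the ANOVA, and 8 of its 27 probe sets had an unadjusted limma p under 0.05, against 17.3% of all probe sets.

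Markers of other cells of muscle were set beside the repressors. No adipocyte, leukocyte, endothelial or fibroblast gene passed among 5 measured for each list in limma or in the ANOVA. In limma 8.26% of all genes with a symbol passed, so 0 of 5 is near that share. At an unadjusted limma p under 0.05 there were 1 adipocyte, 1 leukocyte, 2 endothelial and 1 fibroblast gene. By probe set these were 1 of 17, 1 of 10, 2 of 11 and 2 of 13 in that order, against 17.3% of all. The median differences of the brightest probe sets were 0.22, −0.06, −0.004 and 0.12 in the same order. Of 4 red cell markers, 1 passed in limma, against 8.26% of all genes with a symbol, and 0 in the ANOVA. ALAS2, the haem synthesis enzyme of red cell precursors, was lower in Duroc (3.91 ± 0.38 in Duroc, 4.42 ± 0.24 in PiNN, difference −0.51, limma adjusted p = 0.0327). The mean over the red cell markers was 4.08, 4.23 and 4.81 (lowest, median and highest) in Duroc, against 4.45, 4.77 and 5.24 in PiNN, so the breeds overlapped. HBB, the β-globin gene, averaged 6.41 in Duroc and 7.57 in PiNN on its brightest probe set (limma adjusted p = 0.0527). The other HBB probe set differed by −0.16 (limma adjusted p = 0.437). SLC4A1, the anion exchanger of red cells, averaged 4.74 in Duroc and 4.75 in PiNN on its brightest probe set (limma adjusted p = 0.974), and AHSP, the chaperone of α-globin, lay below the background at 2.33 in Duroc and 2.37 in PiNN. The median of the list mean was lower in Duroc, as were BHLHE40, NR1D1, PER1 and PER3, and the part of these markers in those differences was not tested.

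Between animals of 1 breed, no pair of repressor genes, each read on its brightest probe set, passed a test of co-variation. Among 60 pairs tested, 28 between repressors and 32 of a repressor with ARNTL, CLOCK, NPAS2 or DBP, 0 passed the permutation test after Benjamini-Hochberg adjustment and 5 had an unadjusted p under 0.05. The strongest was that of NR1D2 and CRY1 (r = 0.55, Spearman rho = 0.50, permutation p = 0.0114, adjusted p = 0.524), with r of 0.77 within Duroc, 0.42 within PiNN, 0.46 without the 2 farthest animals and 0.37 with the array background taken out. PER1 and DBP, both driven through E-boxes, gave r = 0.45 (permutation p = 0.0584, adjusted p = 0.584). For PER3 the brightest probe set is not the one with the called breed difference, and PER1 and PER3 gave r = 0.15 on it (permutation p = 0.532). On the called probe set, SNOWBALL_038420_st, which was taken after the values had been seen, PER1 and PER3 gave r = 0.64 (Spearman rho = 0.58, r = 0.53 within Duroc and 0.89 within PiNN, 0.54 without the 2 farthest animals, 0.63 with the array background taken out). This was the strongest of the 60 pairs in that setting, with a permutation p of 0.00137 for r and 0.00791 for rho and adjusted p of 0.0822 and 0.449, so it did not pass the adjustment. With this probe set 0 of the 60 pairs passed and 7 had an unadjusted p under 0.05.

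For each called repressor, the 3 genes of 11334 whose breed-centred signal was most like its own over 20 animals were listed, as a description without a test, on arrays that share their background and normalization. Those most like PER1 were UPB1, an enzyme of pyrimidine breakdown (r = 0.89), USP2 (r = 0.83) and HLF, a transcription factor of the same PAR bZIP family as DBP (r = 0.76). Without the 2 farthest animals these were 0.83 for UPB1, 0.71 for USP2 and 0.55 for HLF. Within Duroc they were 0.89, 0.65 and 0.53 in that order, and within PiNN 0.89, 0.92 and 0.89. The breed difference was 0.04 for UPB1 and 0.18 for HLF, whose limma adjusted p was 0.452. BHLHE40 was most like PRKCE, a protein kinase C gene (r = 0.88), LETMD1 (r = 0.80) and SEMA6D (r = 0.78). NR1D1 was most like INMT, CNRIP1 and MX1 (r of 0.72, 0.72 and 0.70), and PER3, on its brightest probe set, which was not the called one, was most like GNPTAB, PYGL and ASAP1 (r of 0.82, 0.72 and 0.72).

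**Figure D4:**
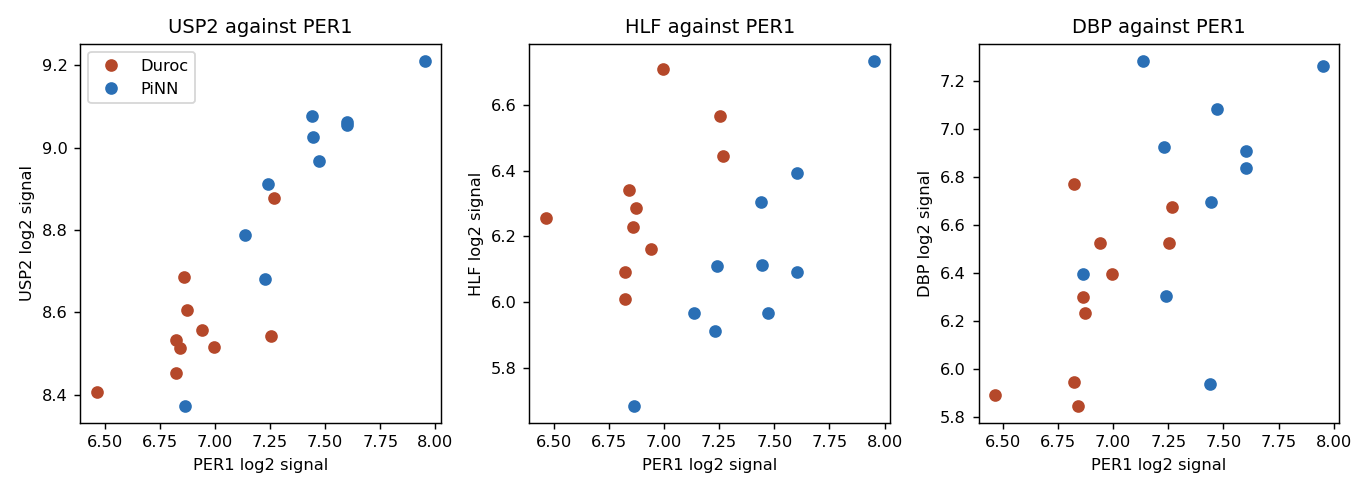
Log2 signal of USP2, HLF and DBP against the log2 signal of PER1, as deposited, 1 point per animal, Duroc in red and PiNN in blue. After the breed mean was removed, r with PER1 over 20 animals was 0.83 for USP2, 0.76 for HLF and 0.45 for DBP, and in the HLF panel the Duroc points lie to the left of most PiNN points.

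With each animal left out in turn, BHLHE40 (difference −0.66 to −0.55), NR1D1 (−0.52 to −0.42) and PER1 (−0.54 to −0.42) stayed under a limma adjusted p of 0.05 in all 20 fits, with the highest adjusted p without PiNN animal 36 for each (0.0194, 0.0409 and 0.0429). PER3 on SNOWBALL_038420_st gave −0.69 to −0.52 and an adjusted p of 0.0259 to 0.0697. In the 4 Duroc and 3 PiNN animals that also had a methylation library, none of the 15 repressor probe sets passed in limma or in the ANOVA (4 at an unadjusted p under 0.05). In the other 6 Duroc and 7 PiNN animals only BHLHE40 passed in limma and none in the ANOVA (5 at an unadjusted p under 0.05). Of all 45922 probe sets, 389 passed in limma in the animals with a library and 585 in those without, against 1917 in all animals. The difference of BHLHE40 was −0.30 in the animals with a library and −0.75 in those without, and that of PER1 was −0.77 in the animals with a library and −0.33 in those without. NR1D1 was nearly the same in both, at −0.42 with a library and −0.46 without. Animals were matched to libraries by their numbers. The study counts 5 Duroc animals with a library among those of its expression data, but not every library number had an array. Whether these subsets differ from each other was not tested.

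**Figure D5:**
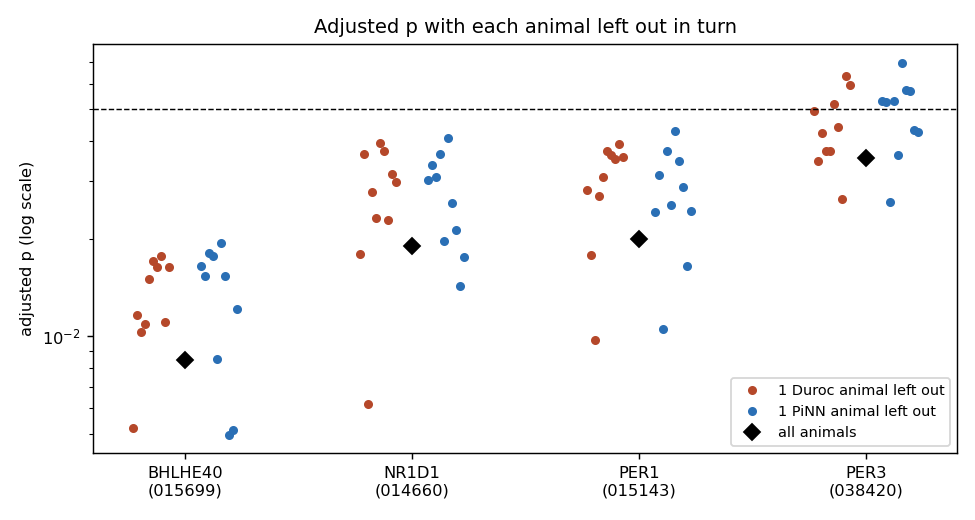
Adjusted p of limma (log axis) for the 4 called repressor probe sets in the 20 fits that each left out 1 animal, Duroc animals in red and PiNN animals in blue, with the fit on all animals as a black diamond and 0.05 as a dashed line. BHLHE40, NR1D1 and PER1 stay under the line, with highest values of 0.0194, 0.0409 and 0.0429, and PER3 runs from 0.0259 to 0.0697.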

How the data were processed

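Longissimus muscle of 10 Duroc and 10 PiNN pigs was hybridised to the Affymetrix Porcine Snowball array, 1 array per animal. By their range, the deposited values are on a log2 scale. How the authors summarized and normalized them was not given in the sources used here. GCOS version 1.1.1 is the only tool in the submitters' processing notes. The table holds no counts, so precision is set by how many arrays there were. Of 47845 probe sets, 1923 were set aside as controls, background or sequences of other species. The median of an array lay between 4.61 and 4.73, and pairs of arrays correlated at 0.953 to 0.986. A single gene symbol was given for 26058 tested probe sets by the platform annotation, and none for 19864. Neighbouring genes were looked up in RefSeq.

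The breed difference was fitted by lmFit and eBayes of limma (version 3.58.1, R version 4.3.3) without covariates, as a two-sided test at a threshold of 0.05 after Benjamini-Hochberg adjustment over the 45922 probe sets. The study's methods name an ANOVA with breed as fixed effect, which was an alternative. Single differences (in R) and correlations (in numpy version 2.4.6) were also tested by permutation with 100000 resamples. Correlations were taken on breed-centred values permuted within breeds, with ranks for Spearman rho from scipy version 1.17.1. In simulated data with known changes, limma recovered 64 of 100 probe sets changed by 0.5 and 94 of 100 changed by 1. The simulation drew normal noise independently for each probe set and changed no others of the 45922. These rates need not hold for the arrays, where more probe sets were called.

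All probe sets of the repressor genes are described. Of the other lists, genes that passed are named, and ARNTL, CLOCK, NPAS2 and DBP whatever their values. For each called repressor, the 3 genes with the highest r are named. Where marker lists were read beside them, genes were named after their values were seen, as were THRA and the relation with the array background. The members and lists were chosen with earlier results of these data known. Alternatives were 12 other settings, 1 mean per gene, and leaving out each of the 20 animals. A planned motif search in promoters was not run because no promoter sequence was used here.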

Additional observations from a re-analysis of the deposited data

Results flagged for a closer look

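The signal of BHLHE41 on its brightest probe set was 7.61 in Duroc animal 59, whereas the next lowest Duroc animal had 7.92 and the highest 8.12. The gap to the nearest animal was 0.603 of the range of the breed, above Dixon's critical value at the 95% level for a group of 10. It was the only such value among the 30 groups of 10 animals checked, and chance alone marks about 1 group in 20. The breed difference of this probe set was −0.31 without that animal (limma adjusted p = 0.137), against −0.35 with it, and did not pass in either fit.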

How the results depend on the processing

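The count of called repressor probe sets (4, in 4 genes) became 7 in 7 genes at an unadjusted p under 0.05, 0 among animals with a methylation library and 1 among those without. It ranged from 3 to 5 for probe sets and for genes when single animals were left out. PER3 was lost with the ANOVA, with the array background as a covariate, and without Duroc animal 42, 58 or 59 or PiNN animal 19, 20, 22, 36, 41 or 47. With array weights the count of genes was 5, since BHLHE41 passed (−0.39, limma adjusted p = 0.0388), and with 1 mean per gene it was 3. Other clock genes (1 called) numbered 9 at an unadjusted p under 0.05, 2 with array weights, 2 among animals with a library, and 0 with quantile normalization, with the array background as a covariate and among animals without a library (10, 7 and 6 genes at an unadjusted p under 0.05), and 0 to 2 without single animals, 0 in 13 of those 20 fits. All called probe sets (1917) numbered 7941 unadjusted, 3135 with array weights, 389 among animals with a library, 585 among those without, and 1174 to 2489 without single animals, being lowest without PiNN animal 36 and also over 1.5 times lower without Duroc animal 46 or PiNN animal 22. The count of co-varying pairs (0) became 8 with the breed difference left in, and stayed 0 with the called PER3 probe set, a setting chosen after seeing the data. The sign turned in these differences. SNOWBALL_028782_st of BHLHE41, below the background (−0.007), gave 0.014 with quantile normalization, 0.017 with array weights, 0.060 among animals with a library, 0.002 without PiNN animal 49 and −0.041 to 0.017 without single animals. Among animals with a library, the brightest PER3 probe set gave 0.069 (−0.08 in all animals) and the brightest CLOCK probe set −0.004 (0.22 in all animals). Without single animals, PER3 on SNOWBALL_029857_st ran from −0.107 to 0.014 and NPAS2 on SNOWBALL_004744_st from −0.274 to 0.032 (−0.15 in all animals). The causes were not tested. Of the differences of repressor probe sets under the other settings, 171 kept direction and call, 7 gained a call (6 of them by holding an unadjusted p to the threshold, 1 with array weights), 9 lost it and 5 changed sign. No paired analysis applied, since the breeds are separate animals and the labels give no pairs. Signals near the background limit what PER3, ARNTL and ALAS2 can show.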
